A study of Mus musculus with 24 samples.

Results

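The comparison set cultured liver endothelium against liver endothelium taken straight from the animal. It used 6 of the 24 RNA-seq libraries of the series: 3 libraries of Akt-liver ECs and 3 of LSECs, chosen by the group that their labels give. Both groups came from the livers of C57BL/6J mice, which the study calls adult; a closer age and the sex are not given in the sources used here. Akt-liver ECs were captured with beads against CD31, plated in endothelial medium with serum, heparin, endothelial mitogen and SB431542, an inhibitor of TGF-β receptors, and infected 1 day later with a lentivirus (pCCL-PGK) that carries myristoylated, constitutively active Akt1. They were sorted again for VEcad and CD31 after a further 1 to 3 weeks. LSECs were sorted without culture from mice whose vessels had been labelled in vivo with anti-VEcad and isolectin. Culture, Akt1, medium and the way of isolation therefore changed together, and their effects cannot be told apart.

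Liver sinusoidal endothelium is a fenestrated, discontinuous endothelium without an organized basement membrane. It clears waste from portal blood through scavenger and lectin receptors, makes clotting factor VIII, and supplies Wnt and Bmp ligands to neighbouring hepatocytes. In culture, sinusoidal cells are known to lose fenestrae and receptors within days, and active Akt is known to favour the survival of ECs in culture.

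The files give FPKM, the fragments per kilobase of transcript scaled to the size of the library, here with upper-quartile normalization. Values of transcripts of a gene were summed. Read numbers are not used here. The depth of each value is therefore unknown, and a gene listed at 0 may be a failed estimate. Of the 22282 genes, 14518 had a mean FPKM of at least 1 over the 6 libraries and were tested with limma on log2(FPKM + 1). A fold change below is always a difference of log2(FPKM + 1), Akt-liver ECs minus LSECs, with its standard error, and understates the change of genes at low FPKM. Genes with a log2 fold change of at least 1 or at most -1 were called higher or lower where the adjusted p was under 0.05. By this rule 2295 genes were higher in Akt-liver ECs (15.8% of those tested) and 2296 were lower (15.8%), together 31.6%, with a median of 0.05 over all genes tested. When each library was centred on the median of 20 genes of endothelial junctions and surface, 0.71 was added to this median, and 3853 genes were higher (75.4% of the calls, beside 50% without centring) and 1257 lower. The sources name the libraries as separate samples and not as separate mice, so the p-values measure the spread between libraries only.

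Libraries of a group differed from each other. Akt-liver EC 1 correlated with the other libraries of its group at r = 0.864 and 0.854 over the log2 values, while Akt-liver EC 2 and 3 correlated at 0.950 and the LSEC libraries at 0.946 to 0.971. The correlation of Akt-liver EC 1 with Akt-LEC 1, a library of lung ECs cultured in the same way, was 0.948, and the column headers of these 2 libraries are consecutive numbers whose meaning is not given. The headers of Akt-liver EC 2 and 3 carry the marks P8 and GFP+, also without explanation, so a difference in handling between the cultures cannot be told apart from other spread. LSECs and Akt-liver ECs correlated at 0.650 to 0.714. The median SD of a gene was 0.41 on the log2 scale among Akt-liver ECs and 0.24 among LSECs. Xist, transcribed from the inactive X chromosome, stood at an FPKM of 190 in Akt-liver EC 3 and 106 in LSEC 3 and at 0.22 or below in the other 4, so that each group held libraries of either kind. Calls of named genes that were lost without Akt-liver EC 1 or LSEC 3 are given beside the genes.

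The LSEC libraries held transcripts of other liver cells, and these were described first. Of 29 hepatocyte genes tested, 25 were lower in Akt-liver ECs and none higher, with a median log2 change of -6.88. Alb, which encodes albumin, had FPKM of 1951, 1211 and 7975 in LSECs 1 to 3, and of 30.3, 0 and 0 in Akt-liver ECs 1 to 3. The summed FPKM of the list took 0.410%, 0.347% and 1.19% of LSECs 1 to 3, so LSEC 3 stood above the other 2, and at most 0.020% of any Akt-liver EC library. Globin transcripts were as high as those of many endothelial genes. Hbb-bs, an adult beta-globin gene, was at 21157, 18424 and 22397 in LSECs and listed at 0 in every Akt-liver EC library, as were Hba-a1, Hba-a2, Hbb-bt and Hbb-b2, whose reads may be shared among near-identical copies. Alas2, which starts haem synthesis in red cells, was at 166, 140 and 152 in LSECs and at 1.07 or below in culture, while Epb42, Trim10 and Rhag, other red cell genes, were listed at 0 in all 6 libraries. In all, 6 of 7 erythroid genes tested were lower, and the list took 1.7% to 1.75% of LSEC libraries.

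Genes of macrophages, which line the sinusoid as Kupffer cells, were nearly all lower in culture. Of 19 macrophage genes tested, 17 were lower in Akt-liver ECs and 0 higher, with a median of -7.62. Clec4f, a lectin of Kupffer cells, was at 4942, 4169 and 2965 in LSECs and at 4.75, 0 and 0 in Akt-liver ECs. Cd5l, secreted by tissue macrophages, was at 4993, 4293 and 3035 against 94.7, 0 and 0. All 19 members were above 0 in each LSEC library, and the list summed to 1.48%, 1.49% and 0.893% of LSECs 1 to 3, beside 1.46%, 1.53% and 1.35% for 20 genes of endothelial junctions and surface. In Akt-liver EC 1, only 1 macrophage gene was listed at 0, against 16 and 18 in Akt-liver EC 2 and 3. Lyz2, a lysozyme of myeloid cells, was at 777, 1.6 and 0 in these 3, and its call was lost when any library other than Akt-liver EC 1 was left out. Lymphocyte genes were called lower in 15 of 16 tested, at low levels, since Ccl5, the highest of them, reached 77.9 in LSECs. Of the 16, 13, 14 and 14 were listed at 0 in Akt-liver ECs 1 to 3. Genes listed at 0 in all cultures passed the filter through LSECs alone and could not be called higher. The numbers called lower in the lists of other cells were therefore partly set by the filter. Of the few neutrophil and platelet genes tested, 3 of 4 and 4 of 8 were lower, and for platelets 1 was lower without LSEC 1 or LSEC 2, 2 without LSEC 3, Akt-liver EC 2 or Akt-liver EC 3, and 6 without Akt-liver EC 1; Itgb3, an integrin of platelets that ECs also make, was the 1 platelet gene that was higher (3.88 ± 0.35).

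Akt-liver EC 1 was also above the other 2 liver cultures in the lists of bile duct and stromal genes. The cholangiocyte list took 0.163%, 0.0022% and 0.0013% of Akt-liver ECs 1 to 3. It took 0.352% of Akt-LEC 1, a lung culture, so this trait was not particular to the liver culture. Of 8 cholangiocyte genes, 1 was called (Cftr, higher by 2.74 ± 0.56), and the list had a median of 1.39 that became -1.24 without Akt-liver EC 1. Krt19, a keratin of cholangiocytes, was at 276, 4.71 and 2.13 in Akt-liver ECs 1 to 3 and at 3.00 to 12.6 in LSECs. Col1a1, the main chain of fibrillar collagen, was at 556, 5.66 and 1.14, and at 1.38, 0.87 and 17.9 in LSECs. Acta2, smooth muscle actin, was at 683, 13.8 and 8.91 against 9.16, 3.54 and 42.2. Neither Col1a1 nor Acta2 was called, and without Akt-liver EC 1 their log2 changes were -0.21 and -0.05. Pdgfra and Pdgfrb, receptors of fibroblasts and pericytes, followed the same pattern at 66.0 and 73.2 in Akt-liver EC 1 and at 1.39 or below in the other 2. Of 12 genes of stellate cells and fibroblasts, 5 were lower and 0 higher: Lrat, which esterifies retinol, was at 59.0, 53.8 and 52.7 in LSECs and listed at 0 in all Akt-liver ECs. In bulk RNA, fewer cells of a type and less RNA per cell cannot be told apart.

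**Figure D1:**
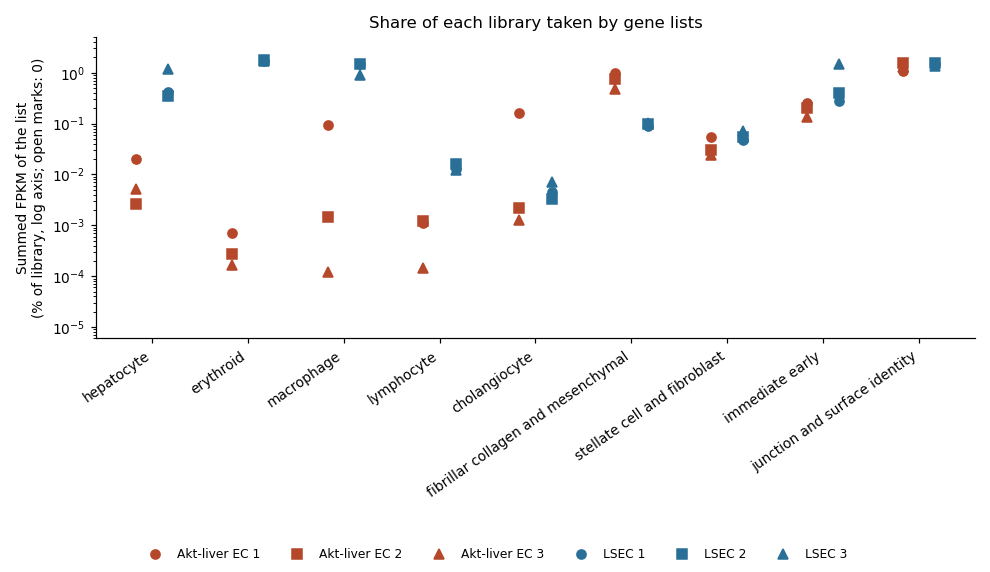
Summed FPKM of gene lists as a percent of each library (log axis), 1 mark per library, Akt-liver ECs in red and LSECs in blue. Hepatocyte, erythroid and macrophage lists are higher in all LSEC libraries, macrophage and cholangiocyte lists are high among cultures in Akt-liver EC 1 (circle), and the endothelial junction list lies between 1.06% and 1.54% everywhere.

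The genes of VEcad and CD31, the antigens for which Akt-liver ECs were sorted, overlapped between the groups. Cdh5, which encodes VEcad, was at 2591, 4131 and 2295 in Akt-liver ECs and at 2928, 2338 and 1805 in LSECs (log2 change 0.33 ± 0.32, adjusted p = 0.43). Pecam1, which encodes CD31, was at 1576, 2648 and 1854 against 2778, 2233 and 2459 (-0.33 ± 0.26, adjusted p = 0.36). Pecam1, itself one of the junction genes described next, turned to 0.43 after centring each library on those genes, and was not called there either. As Akt-liver ECs were sorted for both proteins and LSECs for VEcad, the levels of these genes are no independent measure of identity. Akt1 itself, on chromosome 12, was at 892, 559 and 656 against 451, 508 and 523. The 2 groups did not overlap, but the change of 0.48 ± 0.22 was not called (adjusted p = 0.12). The virus carried a mouse Akt cDNA, so the values in Akt-liver ECs cannot be read as those of the cells' own gene alone. How many reads of the virus count towards Akt1 is not given in the sources used here.

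Among the 20 genes of endothelial junctions and surface, 3 were higher in Akt-liver ECs and 6 lower, with a median of -0.78. Of all genes tested, 15.8% were called in each direction. S1pr1, the receptor for sphingosine 1-phosphate, rose from 410, 353 and 334 in LSECs to 1064, 1522 and 1666 (1.93 ± 0.22, adjusted p = 0.0012). Cd34, a sialomucin absent from most sinusoids, rose from 57.0, 45.3 and 121 to 473, 1373 and 390 (3.20 ± 0.56). Emcn, another sialomucin, rose by less (1.29 ± 0.29), a call lost without LSEC 1 or LSEC 2. Clec14a, a C-type lectin of vessels, fell from 1465, 1470 and 1712 to 41.2, 28.0 and 38.9 (-5.40 ± 0.20, adjusted p = 4.7e-05), and Jam2, a junctional adhesion molecule, from 1228, 895 and 1060 to 54.0, 0.80 and 0.41 (-7.66 ± 1.33). Esam, an adhesion molecule of tight junctions, was lower by -1.80 ± 0.29. After centring on this list, 2 of the 6 were still called lower. The centring uses these same genes and brought their median to -0.02, so it is no independent test of them.

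Of 18 endothelial transcription factors tested, 13 were not called. Erg and Fli1, the Ets factors that hold endothelial identity, overlapped between the groups: Erg was at 205, 583 and 399 against 383, 292 and 261, and Fli1 at 139, 214 and 337 against 248, 191 and 195. Ets1 fell from 1272, 985 and 865 to 379, 195 and 209 (-2.04 ± 0.30), and Epas1, the hypoxia-inducible factor of endothelium, from 628, 678 and 484 to 249, 65.3 and 74.1 (-2.46 ± 0.50). After centring on the junction list, neither was called. Foxc2, a factor of lymphatic valves, was at 22.0, 49.0 and 83.9 in Akt-liver ECs and at 0, 0.70 and 0 in LSECs (5.27 ± 0.55, adjusted p = 8.0e-04). In all, 2 factors were higher and 3 lower, beside 15.8% of all genes tested in each direction. After centring, 5 factors were higher and 0 lower, beside 3853 and 1257 of all 14518 genes tested. Without Akt-liver EC 1, 8 factors were higher, beside 2435 of 14157 genes tested.

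Sinusoidal genes were lower in culture in number, and here too fewer sinusoidal cells and less RNA per cell cannot be told apart. The macrophage list was also high in LSECs, and the part of macrophages in the levels of the sinusoidal genes was not tested. Of 41 tested in 3 lists, 30 were lower in Akt-liver ECs, 0 were higher and 11 were not called, with a median of -3.44 beside 0.05 over all genes tested. Every LSEC library stood above every Akt-liver EC library for 35 of the 41, against 26.6% of all genes tested. Cd209b and Colec10, listed at 0 in all cultures, passed the filter through LSECs alone and could not be called higher. These counts were therefore partly set by the filter. Without Akt-liver EC 1, 35 were lower and 2 higher, without LSEC 3, 24 were lower, and after centring on the junction list 25 were lower and 1 higher.

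Among scavenger and lectin receptors, differences were wide, with 11 of 15 lower in culture and a median of -4.81. Stab2 (chromosome 10), which takes up hyaluronan and other waste, was at 2213, 2140 and 1863 in LSECs and at 173, 54.4 and 58.3 in Akt-liver ECs (-4.64 ± 0.44, adjusted p = 5.9e-04). Clec4g, which encodes the lectin LSECtin, was the most abundant receptor of the list in LSECs at 24439, 21133 and 31959, and stood at 6.53, 0 and 1.6 in culture (-13.21 ± 0.68, adjusted p = 1.2e-04). Fcgr2b, the Fc receptor that clears small immune complexes, was at 13704, 10832 and 12077, and at 418 in Akt-liver EC 1 but listed at 0 in the other 2 cultures. Its change was -10.66 ± 2.24. The macrophage list was also highest among the liver cultures in Akt-liver EC 1, and the part of macrophages in the level of Fcgr2b was not tested. Oit3 showed the same split, at 7140, 6139 and 4556 in LSECs, 686 in Akt-liver EC 1, and 0.90 and 3.39 in Akt-liver EC 2 and 3 (-8.35 ± 2.05), a call that was lost when any library other than Akt-liver EC 1 was left out.

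Further receptors were lower in each culture. Clec1b, the receptor for podoplanin, was at 1360, 1149 and 1458 against 12.0, 1.75 and 2.89 (-7.99 ± 0.55). Gpr182, an atypical chemokine receptor, was at 7097, 5973 and 4171 against 154, 185 and 278 (-4.81 ± 0.30, adjusted p = 1.9e-04). Cd36, a receptor for fatty acids and thrombospondin, was at 3888, 2658 and 4909 against 146, 421 and 406 (-3.66 ± 0.46). Mrc1, the mannose receptor, was at 5135, 3485 and 3599 against 64.7, 8.66 and 5.63 (-7.96 ± 0.81), and this gene is also known from macrophages, whose list was high in LSECs; the part of macrophages in its level was not tested. Cd209b and Colec10, both lectins, were at 51.5 to 92.2 and 98.9 to 127 in LSECs and listed at 0 in all cultures. Colec10 is secreted and no receptor, and the part of other liver cells in its level was not tested.

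Stab1 and Lyve1, by contrast, were not lower in culture. Stab1, the paralogue of Stab2 and also a scavenger receptor, was at 729, 3563 and 3935 in Akt-liver ECs and at 1979, 1682 and 1801 in LSECs (0.26 ± 0.63, adjusted p = 0.77). Lyve1, a hyaluronan receptor of sinusoids and lymphatics, was at 1725, 5333 and 7229 against 2047, 1452 and 2164 (1.12 ± 0.54, adjusted p = 0.14). Akt-liver EC 1 was the lowest culture for both, and without it both were called higher, by 1.04 and 1.74.

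Of 16 secreted and lysosomal products, 14 were lower and none higher, with a median of -3.56. Dnase1l3, a secreted nuclease, fell from 10921, 8266 and 6871 to 28.1, 0 and 0.61 (-11.21 ± 1.19, adjusted p = 8.8e-04). F8, which encodes factor VIII, fell from 2361, 1433 and 1936 to 54.5, 192 and 211 (-3.83 ± 0.53). Ehd3, an endocytic protein, fell from 7310, 6207 and 5535 to 286, 153 and 38.3 (-5.71 ± 0.68), and Plpp3, a lipid phosphatase, from 3291, 2880 and 2428 to 454, 368 and 143 (-3.30 ± 0.43). For these 4, every culture was below every LSEC library.

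Signals that the sinusoid sends to hepatocytes were among the products that fell. Wnt2, a ligand that keeps up the gene program around the central vein, was at 1261, 1096 and 1020 in LSECs and at 14.3, 1.68 and 19.4 in Akt-liver ECs (-6.90 ± 0.72, adjusted p = 8.4e-04). Rspo3, which strengthens Wnt signals, was at 110, 89.6 and 79.1 against 39.6, 16.2 and 24.5 (-1.83 ± 0.34). Bmp2, a regulator of hepatic iron through hepcidin, was at 1036, 1373 and 1950, and at 71.6 in Akt-liver EC 1 while listed at 0 in the other 2 (-8.40 ± 1.61). Bmp6, its partner in iron control, was at 319, 405 and 308 against 184, 34.1 and 51.6 (-2.29 ± 0.58). Hgf, a mitogen of hepatocytes that stellate cells also make, was at 262, 167 and 284 against 9.85, 0 and 1.35 (-6.30 ± 0.82). Centred on the junction list, Rspo3, Bmp6 and Igfbp7 were not called, and the call of Bmp6 was also lost when any library other than Akt-liver EC 1 was left out. Igfbp7 and Dll4 fell less: Igfbp7 was at 2555, 1566 and 3826 against 9105, 12050 and 11279 (-2.11 ± 0.38), and Dll4, a Notch ligand, at 76.6, 105 and 56.0 against 249, 297 and 368 (-1.96 ± 0.27).

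Of 10 transcription factors listed for sinusoids, 5 were lower and 0 higher, with a median of -2.86. Gata4, which drives sinusoidal against continuous endothelial differentiation in the liver, was at 426, 531 and 543 in LSECs and at 214, 11.9 and 9.20 in Akt-liver ECs (-4.03 ± 1.10, adjusted p = 0.027). Its change was -5.44 without Akt-liver EC 1, which held most of the signal among cultures, and the call was lost when any other library was left out (adjusted p = 0.094 without LSEC 3). Maf was at 929, 1174 and 958 against 87.5, 384 and 142 (-2.58 ± 0.51), and Meis1 at 93.7, 72.4 and 84.0 against 21.0, 4.08 and 3.10 (-3.44 ± 0.63). Nr1h3, the oxysterol receptor LXRα, which macrophages also use, was at 204, 236 and 181 against 31.5, 35.9 and 40.0 (-2.50 ± 0.19). Tfec was at 383, 304 and 365 against 180, 9 and 0 and was not called (-4.84 ± 1.68, adjusted p = 0.059), though it was without Akt-liver EC 1. In the RefSeq promoters at hand, which cover 250 bases before to 50 after each start (GRCm38.p6), the GATA boxes TGATAA and AGATAA, searched on both strands, were in 1 and 1 of 9 receptor genes, 1 and 0 of 12 product genes and 1 and 2 of 8 factor genes, beside 10.4% and 12.7% of all 27025 genes.

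**Figure D2:**
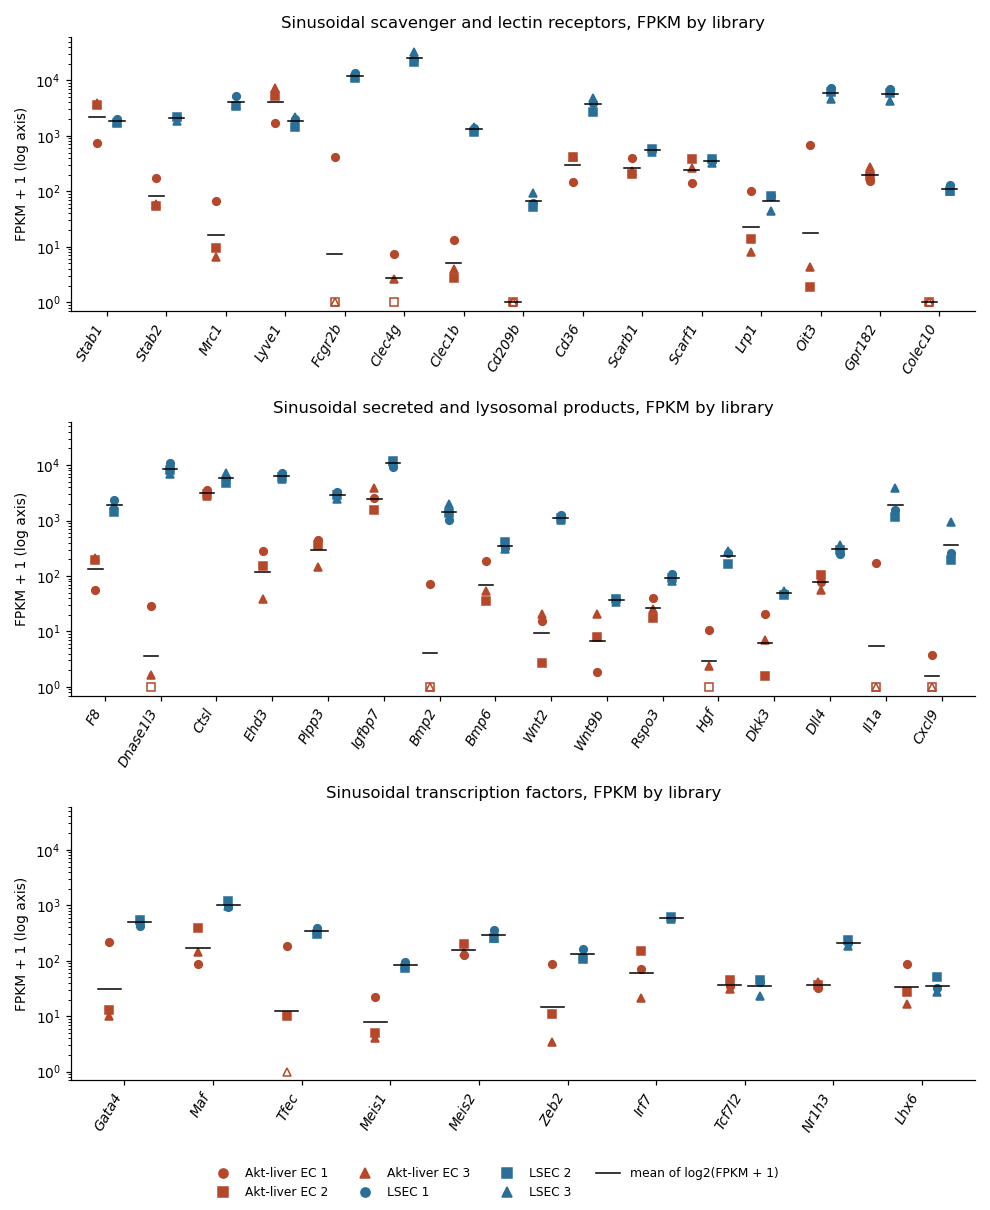
FPKM + 1 of every gene of the 3 sinusoidal lists (log axis), 1 mark per library, Akt-liver ECs in red, LSECs in blue, open marks listed at 0, black bars the mean of log2(FPKM + 1). LSEC marks sit above the red ones for 35 of the 41 genes, Stab1 and Lyve1 overlap, and Akt-liver EC 1 (circle) lies between the groups for Fcgr2b, Oit3, Bmp2 and Gata4.

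In the list of 14 receptors and ligands of the Vegf and angiopoietin families, 3 genes were higher, all of them ligands, and 6 were lower (3 without LSEC 1, 4 without LSEC 3). The share of all genes tested was 15.8% in each direction. The 6 were the receptors and co-receptor Kdr, Flt1, Nrp1 and Tek, the phosphatase Ptprb and the lymphangiogenic ligand Vegfc. Kdr, the main Vegf receptor, was at 4281, 3395 and 3366 in LSECs and at 427, 1298 and 1171 in Akt-liver ECs (-2.08 ± 0.44, adjusted p = 0.011). Flt1, its decoy relative, fell from 632, 505 and 418 to 30.4, 17.4 and 1.13 (-5.58 ± 0.94), and Nrp1, the co-receptor, from 2688, 1897 and 1804 to 264, 30.03 and 2.3 (-6.12 ± 1.42). Tek, which encodes the Tie2 receptor, fell from 1907, 1360 and 1377 to 86.5, 132 and 84.2 (-3.94 ± 0.25, adjusted p = 1.9e-04). Ptprb, the phosphatase that restrains Tie2, fell by 4.06 ± 0.46. Flt4, Nrp2 and Tie1 overlapped between the groups and were not called. Among ligands, Angpt2, which opposes Tie2 activation, rose from 113, 81.5 and 111 to 2239, 3622 and 8133 (5.31 ± 0.46, adjusted p = 4.6e-04). Pgf, the placental growth factor, was at 625, 348 and 158 in Akt-liver ECs and listed at 0 in all LSECs. Vegfa rose from 23.8, 24.7 and 26.1 to 91.9, 96.1 and 73.8 (1.76 ± 0.19). After centring on the junction list, Kdr was not called (-1.33, adjusted p = 0.078). Vegfc fell from 53.6, 41.2 and 56.1 to 27.8, 10.8 and 15.1 (-1.53 ± 0.36), a call lost without LSEC 1 or LSEC 3 and after centring. The call of Nrp1 was lost without any 1 of the LSEC libraries, and that of Kdr without LSEC 1.

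Lymphatic genes were high in culture. The study describes its LSECs as non-lymphatic ECs, so for these genes the choice of cells and culture cannot be told apart. More lymphatic cells and more RNA per cell cannot be told apart either. Of 10 venous and lymphatic genes tested, 6 were higher in Akt-liver ECs and 1 lower, with a median of 5.09. Prox1, the transcription factor that specifies lymphatic endothelium, was at 39.3, 683 and 703 in Akt-liver ECs and at 5.42, 2.43 and 3.85 in LSECs (5.82 ± 1.09, adjusted p = 0.0070). Pdpn, which encodes podoplanin, was at 440, 544 and 988 against 0, 1.65 and 2.70 (8.18 ± 0.54, adjusted p = 2.1e-04). Mmrn1, a secreted multimerin of lymphatic and venous cells, was at 131, 2826 and 3363 against 2.27, 1.08 and 7.63 (8.12 ± 1.27). Ccl21a, the lymphatic chemokine, was at 0, 1519 and 185 against 1.00, 0 and 9.22 and was not called (adjusted p = 0.19); its reads may be shared with copies of the gene. Prox1, Mmrn1 and Ccl21a were lowest by far in Akt-liver EC 1, in which Pdpn was near the other 2.

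The remaining members of that list split. Thy1, a surface protein of lymphatic cells and of fibroblasts, was at 655, 2212 and 2316 against 22.2, 20.4 and 16.1 (6.20 ± 0.49). Selp, the P-selectin gene, was at 1111, 573 and 534 against 11.1, 12.0 and 18.1 (5.60 ± 0.34, adjusted p = 1.8e-04), and Foxp2 rose by 3.09 ± 0.85, a call lost when any library other than Akt-liver EC 1 was left out. Ackr1, an atypical chemokine receptor of venules, fell from 217, 200 and 178 to 6.30, 7.43 and 6.26 (-4.70 ± 0.20, adjusted p = 5.7e-05). In the lung cultures Akt-LECs 1 to 3, Prox1 was at 111, 433 and 0.79 and Mmrn1 at 482, 3662 and 13.1, so that the spread between cultures was wide there too.

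Among 14 arterial and Notch genes tested, 3 were higher and 3 lower, beside 15.8% of all genes tested in each direction. The Notch ligands Jag1 and Jag2 were higher, Jag1 at 251, 272 and 80.9 against 17.2, 18.2 and 18.7 (3.22 ± 0.46), and the netrin receptor Unc5b rose by 5.30 ± 0.53. Gja4, a gap junction protein of arteries, fell from 492, 534 and 749 to 2.05, 4.16 and 16.4 (-6.49 ± 0.61). Efnb2, Notch1 and Notch4 overlapped. The list of flow-induced and vasoactive genes held 4 higher and 4 lower of 16, with a median of -0.46 that turned to 0.24 after centring on the junction list. Aqp1, a water channel and one of the most abundant LSEC transcripts, was at 16637, 17437 and 21084 against 866, 1504 and 807 (-4.17 ± 0.32, adjusted p = 3.1e-04). Ptgs1, a cyclooxygenase, fell by 5.24 ± 1.10. Apln, a peptide of tip cells, rose from 4.07, 1.72 and 2.96 to 3167, 465 and 46.1 (6.76 ± 1.38), Edn1, the endothelin gene, from 8.70, 7.34 and 31.7 to 935, 139 and 207 (4.44 ± 0.82), and Adm, adrenomedullin, from 96.97, 68.1 and 101 to 1230, 599 and 683 (3.17 ± 0.31). Klf2 and Klf4, factors that shear stress induces, overlapped and were highest of all in LSEC 3.

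Genes of clotting and of fibrinolysis were mostly higher, 8 of 11 tested, with 2 lower and a median of 4.08. Procr, the endothelial protein C receptor, rose from 41.2, 34.0 and 43.5 to 1651, 1058 and 499 (4.57 ± 0.42, adjusted p = 5.4e-04). Plat and Plau, the plasminogen activators, rose by 5.71 ± 0.83 and 3.40 ± 0.39, and Plaur, the receptor of the latter, by 4.08 ± 0.31. Serpine2 rose by 7.05 ± 0.69, and Thbs1, thrombospondin, by 6.87 ± 1.03 from 3.98, 4.56 and 11.6 to 4450, 241 and 516. Vwf, the von Willebrand factor gene, was low even in LSECs at 23.8, 23.2 and 45.2 and stood at 1.19, 0.26 and 0.53 in culture (-4.23 ± 0.41). Tfpi, which blocks the start of clotting, fell from 1762, 1332 and 1976 to 403, 366 and 326 (-2.19 ± 0.21, adjusted p = 6.3e-04).

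Of 13 genes of leukocyte adhesion, 2 were higher and 2 lower, beside 15.8% of all genes tested in each direction. Of the 13, 0 were lower without LSEC 1 or without LSEC 3, and 5 without Akt-liver EC 1. Ccl2, a monocyte chemokine, was at 6168, 7289 and 5088 against 145, 138 and 171 (5.33 ± 0.21, adjusted p = 4.9e-05), and Ly6a fell from 3192, 2768 and 4693 to 714, 48.8 and 11.4 (-5.50 ± 1.34), a call lost without Akt-liver EC 2 or any LSEC library. Vcam1 was at 536, 15.7 and 4.97 against 354, 246 and 441 and was not called. Caveolar genes differed among themselves. Cav1, the structural protein of caveolae, went from 264, 193 and 249 to 1202, 1781 and 1934 (2.78 ± 0.25, adjusted p = 4.8e-04), Cavin1 rose by 2.66 ± 0.19 and Ehd2, which sits at the caveolar neck, by 5.59 ± 0.36. Plvap, which forms the diaphragms of fenestrae and caveolae and is scarce in mature sinusoids, rose from 866, 988 and 674 to 1829, 3843 and 5953 (2.06 ± 0.44), a call lost without LSEC 3 (adjusted p = 0.054). Cavin2, another coat protein, fell from 2255, 1614 and 1664 to 797, 551 and 1242 (-1.16 ± 0.33), a call lost without Akt-liver EC 2 or any LSEC library and after centring, and Cav2 was not called (-0.93 ± 0.25). Of the 12 genes of the list, 6 were higher and 2 lower. Gpihbp1, which anchors lipoprotein lipase on capillaries, was the other that fell, from 10446, 9620 and 12583 to 109, 355 and 381 (-5.46 ± 0.49, adjusted p = 5.0e-04). Pparg, a lipid-sensing receptor, rose by 3.56 ± 0.91, a call lost without Akt-liver EC 2 or any LSEC library.

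Of the basement membrane genes, 8 of 16 were higher and 1 lower, with a median of 1.61. Fn1, fibronectin, was at 1950, 4386 and 2774 against 7.67, 8.50 and 22.5 (7.85 ± 0.46, adjusted p = 1.7e-04), and Col18a1, the source of endostatin, at 586, 3734 and 1939 against 2.98, 3.24 and 12.4 (8.06 ± 0.76). The laminin chains Lamb1 and Lamc1 rose by 6.17 ± 0.38 and 3.36 ± 0.20, and Col4a1, a chain of type IV collagen, from 639, 747 and 608 to 3102, 2192 and 1662 (1.76 ± 0.27). Lama4, Lama5, Lamb2 and Hspg2 overlapped between the groups.

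Mesenchymal genes did not rise as one. Of 22 tested, 8 were higher and 1 lower, with a median of 1.28 that became -0.21 without Akt-liver EC 1. The gene called lower was Twist1, a transcription factor of mesenchyme (-4.52 ± 1.40); 5 were lower without Akt-liver EC 1 and 0 without any 1 of the others. Among those higher were Vim, the vimentin gene, at 10467, 9944 and 6478 against 1318, 1292 and 1283 (2.76 ± 0.27), Fbn1, fibrillin, at 68.4, 49.0 and 78.4 against 8.94, 9.25 and 14.5 (2.48 ± 0.29), and S100a4 at 2098, 333 and 346 against 16.7, 14.4 and 47.5 (4.72 ± 0.80). Col1a2, Col3a1, Lox, Cnn1 and Postn, in contrast, were at 4.92 or below in Akt-liver EC 2 and 3. LSEC 3 was above the other LSECs by more than 1 on the log2 scale for 12 of the 22 genes.

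**Figure D3:**
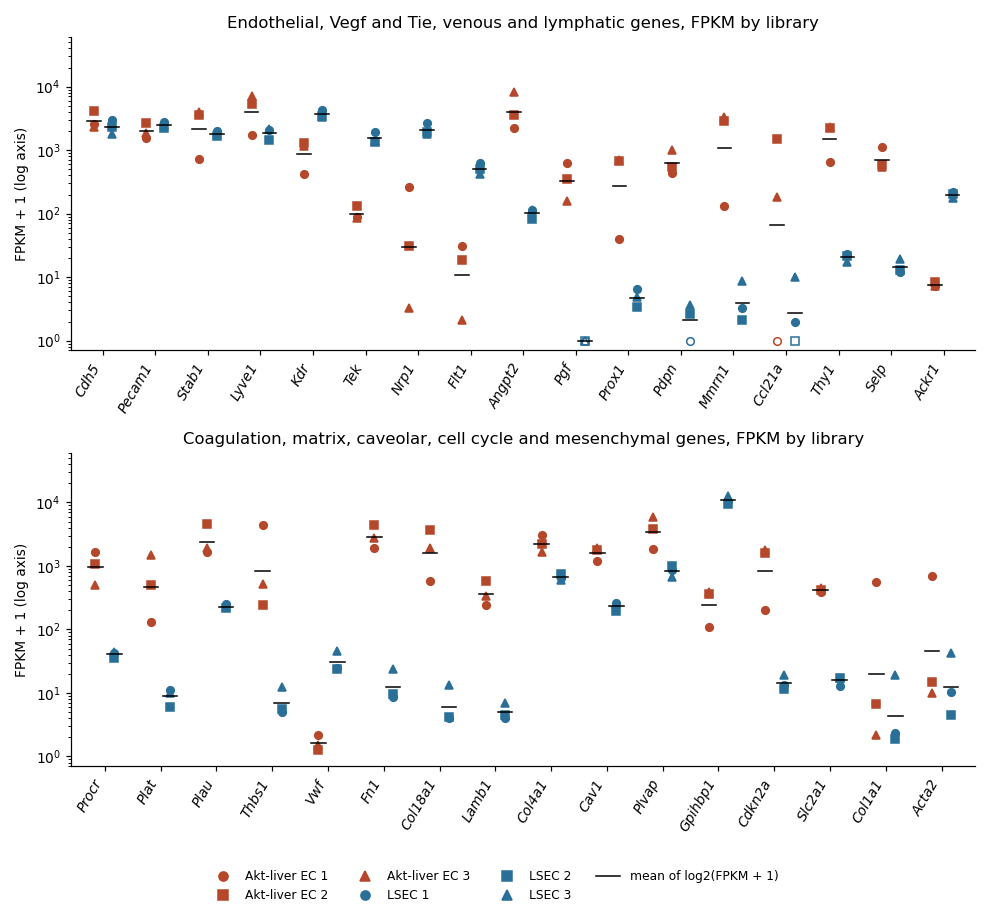
FPKM + 1 of chosen endothelial, lymphatic, coagulation, matrix, caveolar, cell cycle and mesenchymal genes (log axis), 1 mark per library, Akt-liver ECs in red, LSECs in blue, open marks listed at 0, black bars the mean of log2(FPKM + 1). Prox1, Pdpn, Mmrn1, Fn1 and Slc2a1 are above in every culture, whereas Col1a1 and Acta2 are high in Akt-liver EC 1 alone.

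Genes of cell division were higher in culture. Of 20 mitotic genes, 16 were higher and 0 lower, with a median of 2.87, and of 20 genes of DNA replication 9 were higher and 0 lower, with a median of 1.7. Plk1, a kinase of mitotic entry, was at 163, 25.5 and 105 in Akt-liver ECs and at 1.82, 2.99 and 9.61 in LSECs (3.97 ± 0.78, adjusted p = 0.0085). Cdc20, an activator of the anaphase-promoting complex, was at 205, 35.7 and 164 against 3.90, 6.65 and 23.7 (3.46 ± 0.83), and Foxm1, which drives mitotic transcription, rose by 3.41 ± 0.69. Akt-liver EC 2 was the lowest culture and LSEC 3 the highest LSEC for each of these, and the mitotic list took 0.131%, 0.031% and 0.097% of Akt-liver ECs 1 to 3 and 0.007%, 0.007% and 0.023% of LSECs. The number of mitotic genes called moved with single libraries: it was 2 without LSEC 1 or LSEC 2, 3 without Akt-liver EC 3, 7 without Akt-liver EC 1 and 19 without Akt-liver EC 2. In the list of DNA replication, Ccne1, which starts S phase, rose by 4.40 ± 0.60 and Rrm2, the ribonucleotide reductase subunit, by 3.92 ± 0.91, a call lost without LSEC 1 or LSEC 2. The replication genes called were 3 without LSEC 1 or LSEC 2, 5 without Akt-liver EC 3 and 17 without Akt-liver EC 2. Mcm3 to Mcm6 and Pcna overlapped between the groups and were not called.

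The mitotic genes share short promoter motifs. CCAAT is the box bound by NF-Y, and TTTGAA is the core of the cell cycle homology region bound by repressor complexes in resting cells. Both were searched on both strands of the RefSeq promoters (GRCm38.p6), which held 16 of the 20 genes. CCAAT was in 14 of the 16 (87.5%) beside 37.4% of all 32851 promoters, and TTTGAA in 11 (68.8%) beside 17.9%. In the list of DNA replication, the E2F site TTTGGCGC was in 5 of 15 genes (33.3%), beside 0.585% of all genes, and TTTCCCGC in 3 (20%), beside 1.24%. The matches are descriptions of sequence, not tested sites. The 250 bases before the start of 4 mitotic genes and 1 replication gene, all of them higher in Akt-liver ECs, are given to show the motifs in place, with matches of CCAAT and TTTGAA in capitals in the first 4 and only those of the E2F motifs in Mcm7, whose CCAAT boxes are left in lower case. A match on the other strand appears as the reverse complement of its motif, as TTTCCCGC does in Mcm7. In GRCm38.p6 coordinates all 5 lie on the minus strand: Cdc20 at chr4:118437344-118437593, Ccnb2 at chr9:70421555-70421804, Top2a at chr11:99024190-99024439, Mki67 at chr7:135716380-135716629 and Mcm7 at chr5:138171884-138172133.
Cdc20: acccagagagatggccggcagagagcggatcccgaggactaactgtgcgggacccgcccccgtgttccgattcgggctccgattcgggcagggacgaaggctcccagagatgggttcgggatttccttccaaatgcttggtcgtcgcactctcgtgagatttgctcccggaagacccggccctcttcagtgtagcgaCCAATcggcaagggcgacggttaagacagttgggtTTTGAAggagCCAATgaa
Ccnb2: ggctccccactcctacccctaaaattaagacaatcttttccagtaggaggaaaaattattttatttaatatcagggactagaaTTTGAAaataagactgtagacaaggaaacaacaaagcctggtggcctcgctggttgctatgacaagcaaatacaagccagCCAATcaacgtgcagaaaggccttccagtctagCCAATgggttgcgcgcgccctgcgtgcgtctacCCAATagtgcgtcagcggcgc
Top2a: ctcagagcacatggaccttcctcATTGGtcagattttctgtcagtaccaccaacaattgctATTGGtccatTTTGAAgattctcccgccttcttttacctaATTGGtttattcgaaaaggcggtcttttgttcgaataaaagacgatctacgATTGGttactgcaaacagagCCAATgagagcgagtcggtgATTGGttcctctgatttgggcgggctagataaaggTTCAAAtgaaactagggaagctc
Mki67: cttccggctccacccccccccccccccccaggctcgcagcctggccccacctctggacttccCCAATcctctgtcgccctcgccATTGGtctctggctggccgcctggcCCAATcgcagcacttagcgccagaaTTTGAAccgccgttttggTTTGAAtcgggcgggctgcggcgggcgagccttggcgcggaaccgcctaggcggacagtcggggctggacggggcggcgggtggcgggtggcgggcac
Mcm7: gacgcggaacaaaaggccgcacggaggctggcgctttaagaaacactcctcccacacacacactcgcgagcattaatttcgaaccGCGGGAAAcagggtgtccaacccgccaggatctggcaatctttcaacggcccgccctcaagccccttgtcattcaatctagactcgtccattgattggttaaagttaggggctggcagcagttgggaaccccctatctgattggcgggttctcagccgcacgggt
Within these windows, CCAAT occurs 2 times in Cdc20, 3 in Ccnb2, 6 in Top2a and 3 in Mki67, and TTTGAA 1, 1, 2 and 2 times. Ccnb2, which encodes cyclin B2, was at 168, 42.0 and 178 against 6.35, 5.94 and 46.7 (3.02 ± 0.89, adjusted p = 0.035), so LSEC 3 overlapped the cultures. The calls of Ccnb2 and Top2a were lost without Akt-liver EC 1, and theirs and those of Cdc20, Mki67 and Mcm7 without any 1 of Akt-liver EC 3, LSEC 1 and LSEC 2. Mki67, a marker of cycling cells, was at 90.9, 30.4 and 57.1 against 4.65, 4.09 and 20.4 (2.70 ± 0.65).

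Of 15 genes in the list of cell cycle inhibitors, p53 targets and D cyclins, 8 were higher and 3 lower, and the inhibitors among them went both ways. Cdkn2a, on chromosome 4, which encodes p16Ink4a and p19Arf, was at 205, 1625 and 1771 in Akt-liver ECs and at 12.4, 10.7 and 18.3 in LSECs (5.86 ± 0.81, adjusted p = 0.0023). Its neighbour Cdkn2b was at 155, 518 and 216 against 7.08, 8.96 and 8.71 (4.82 ± 0.44). Both were lowest among cultures in Akt-liver EC 1, the culture with the most mitotic transcript. Cdkn1a, which encodes p21, was at 1579, 1087 and 648 against 93.4, 98.2 and 513 (2.62 ± 0.70), a call lost without Akt-liver EC 2, LSEC 1 or LSEC 2, and Trp53 and its target Mdm2 rose by 1.63 ± 0.21 and 2.02 ± 0.30. Ccnd1, cyclin D1, rose from 689, 590 and 524 to 1993, 2531 and 2192 (1.90 ± 0.20). Cdkn1b, Cdkn1c and Rb1, which hold cells at rest, were lower by 1.06 to 2.41 on the log2 scale, and none of the 3 was called without LSEC 3 or after centring on the junction list, nor was Cdkn1b without Akt-liver EC 1.

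Immediate early genes, which tissue dissociation is known to induce, differed within LSECs. Of 20 tested, 8 were lower in Akt-liver ECs and 2 higher, with a median of -1.79. Fos was at 818, 867 and 6608 in LSECs and at 201, 42.8 and 26.7 in Akt-liver ECs (-4.74 ± 1.02, adjusted p = 0.012). Jun was at 630, 886 and 4379 against 262, 423 and 240 (-2.17 ± 0.71), and Zfp36, which destabilizes cytokine mRNA, at 1157, 1297 and 4374 against 195, 112 and 13.6 (-4.77 ± 1.01). The call of Atf3 was lost when any library other than Akt-liver EC 1 was left out, that of Fosb without Akt-liver EC 3, that of Jun without LSEC 2 or any 1 of the cultures, and that of Zfp36 without LSEC 3 (adjusted p = 0.050). LSEC 3 was the highest of the 3 LSECs for Fos, Jun and Zfp36, and the list took 0.284%, 0.393% and 1.51% of LSECs 1 to 3. Without LSEC 3 the median was -0.94, and 3 to 5 genes were lower when any 1 library other than Akt-liver EC 1 was left out (3 without Akt-liver EC 3). Fosl1 and Fosl2 were the 2 that were higher: Fosl1, an AP-1 factor of growing cells, was at 143, 152 and 14.95 and listed at 0 in all LSECs, and Fosl2 rose by 2.06 ± 0.35.

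**Figure D4:**
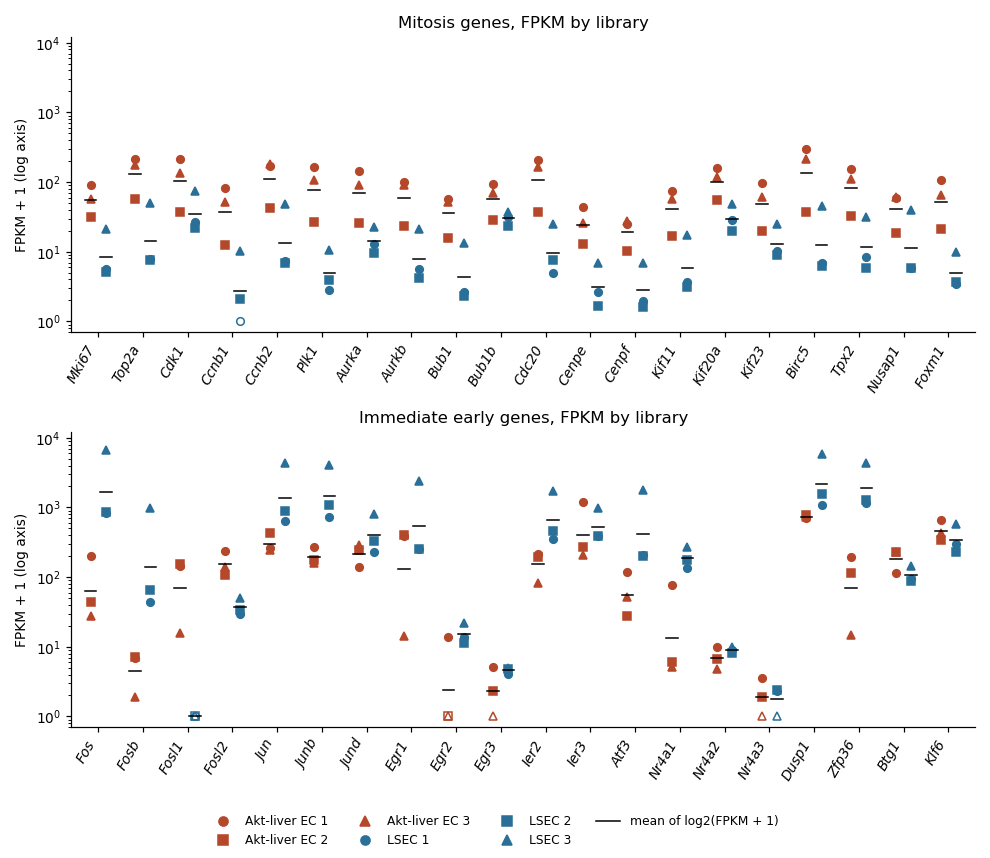
FPKM + 1 of the 20 mitotic and 20 immediate early genes (log axis), 1 mark per library, Akt-liver ECs in red, LSECs in blue, open marks listed at 0, black bars the mean of log2(FPKM + 1). For mitotic genes Akt-liver EC 2 (red square) and LSEC 3 (blue triangle) approach each other, and for Fos, Fosb, Jun and Atf3 LSEC 3 lies well above the other LSECs.

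Genes of glycolysis were higher in culture, 14 of 20 with 0 lower and a median of 1.71. Slc2a1, the glucose transporter Glut1, was at 390, 419 and 456 against 12.0, 16.4 and 16.1 (4.75 ± 0.19, adjusted p = 4.9e-05). Hk2, a hexokinase, rose from 12.6, 16.2 and 9 to 79.8, 49.5 and 90.1 (2.44 ± 0.33), Pgk1 by 2.57 ± 0.35, and Slc16a3, which exports lactate, by 4.50 ± 0.42. Egln3, a hypoxia-induced prolyl hydroxylase, rose from 4.09, 3.51 and 6.36 to 64.0, 262 and 471 (5.18 ± 0.70). Of 20 genes of sterol and fatty acid synthesis, 7 were higher and 0 lower (4 higher without any 1 of Akt-liver EC 1, Akt-liver EC 3, LSEC 2 and LSEC 3). Fasn, the fatty acid synthase, was at 271, 222 and 137 against 7.24, 6.92 and 11.9 (4.43 ± 0.33, adjusted p = 2.9e-04), Sqle rose by 2.73 ± 0.55 and Scd2 by 2.23 ± 0.32. For Sqle, Idi1, Fdps and Cyp51, Akt-liver EC 2 was the lowest culture.

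Among 20 genes of Akt, Foxo and insulin signalling, 4 were higher and 3 lower, beside 15.8% of all genes tested in each direction. The median of the list was 0.51, and its counts were near the share of all genes. After centring on the junction list, 8 were higher and 0 lower, beside 3853 and 1257 of all 14518 genes tested. Of the 4, 2 were called without LSEC 1, and 1 of the 3 without any LSEC library. Active Akt is known to exclude Foxo factors from the nucleus, and Foxo targets are on this list. Sesn1 fell from 261, 222 and 243 to 33.7, 57.2 and 99.2 (-2.05 ± 0.37) and Txnip, which limits glucose uptake, from 6385, 5172 and 3380 to 315, 1296 and 1626 (-2.46 ± 0.63). Igf1r, a receptor whose gene Foxo factors activate, rose from 10.5, 16.4 and 11.9 to 47.5, 54.2 and 40.5 (1.81 ± 0.26), as did Sesn3, Foxo3 and Trib3, a pseudokinase that binds Akt (3.02 ± 0.54). After centring, Sesn1 and Txnip were not called, nor was Txnip without any 1 of the LSEC libraries. The call of Sesn3 was lost when any library other than Akt-liver EC 1 was left out, and that of Foxo3 without LSEC 1. In the Tgf-beta and Bmp list, 5 of 20 were higher and 5 lower, beside 15.8% of all genes tested in each direction. After centring 11 were higher and 0 lower, beside the 3853 and 1257 of all genes given above. Without Akt-liver EC 1, 9 of the list were higher. The number lower was 1 without LSEC 1, 2 without LSEC 2 and 3 without LSEC 3 or Akt-liver EC 3. Tgfb2 and Tgfb3, the ligands, rose by 5.16 ± 0.61 and 3.26 ± 0.32, and Smad3, the mediator of their signal, from 31.3, 34.0 and 32.2 to 132, 177 and 99.4 (1.99 ± 0.24). The Bmp target Id1 rose by 1.89 ± 0.49, whereas Id3 fell by 1.33 ± 0.31, a call that was lost after centring. Both calls were lost without LSEC 1 or LSEC 2, and that of Id1 also without LSEC 3 or Akt-liver EC 2. The medium held an inhibitor of TGF-β receptors.

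Interferon and antigen presentation genes were lower in culture. Of 18 interferon-induced genes, 12 were lower and 0 higher, with a median of -2.34 (5 lower without LSEC 1, 7 without LSEC 2 and 6 without LSEC 3). Irf1 was at 610, 559 and 1213 in LSECs and at 50.5, 46.5 and 39.8 in Akt-liver ECs (-4.01 ± 0.32, adjusted p = 3.5e-04). Oas1a fell by 2.64 ± 0.22 and Ifit2 by 3.21 ± 0.62. All 14 MHC genes were lower, with a median of -3.06 (9 lower after centring on the junction list). B2m, the light chain of class I, fell from 27893, 22237 and 42099 to 5453, 10080 and 9974 (-1.86 ± 0.43), H2-K1 by 1.86 ± 0.46, and Psmb9, a subunit of the immunoproteasome, by 3.55 ± 0.36. The calls of B2m and H2-K1 were lost without LSEC 1 or LSEC 3, and that of H2-K1 also without LSEC 2. Class II genes fell further: H2-Aa was at 1400, 1199 and 1401 against 9.30, 0 and 0 (-9.26 ± 0.88, adjusted p = 6.0e-04), H2-Eb1 at 535, 468 and 512 against 5.74, 0.97 and 1.7 (-7.26 ± 0.45), and Cd74, the invariant chain, at 2497, 2496 and 1458 against 36.1, 0 and 2.25 (-8.72 ± 1.21). Sinusoidal ECs, macrophages and B cells are all known to express class II, and the macrophage list was high in the same libraries; its part in these values was not tested.

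**Figure D5:**
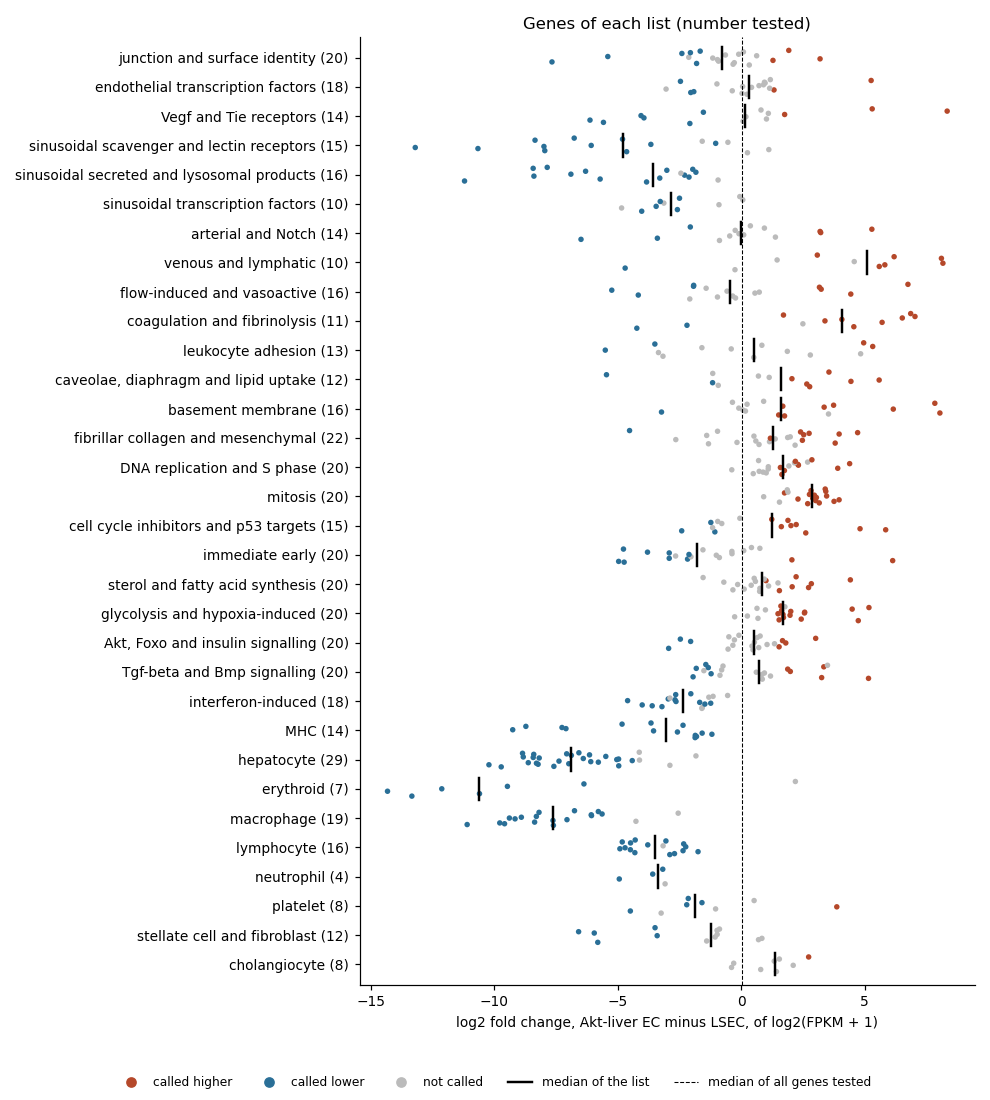
The log2 fold change (Akt-liver EC minus LSEC) of every tested gene of each list, with the number tested in brackets, coloured by call, a black bar at the median of the list and a dashed line at the median of all genes tested (0.05). Sinusoidal, MHC, interferon, hepatocyte, erythroid and macrophage lists lie to the left, and venous and lymphatic, coagulation, mitotic and glycolytic lists to the right.

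The genes with the widest gap between the groups, 15 in each direction outside the lists of other cells, were named by that rule. Of the 15 that were higher in Akt-liver ECs, 9 were listed at 0 in all LSECs. Tnc, the matrix protein tenascin C (chromosome 4), was at 1695, 3417 and 2028 against 0, 0 and 0.82 (10.86 ± 0.36, adjusted p = 3.7e-05). Itga3, the integrin chain that binds laminins, was at 494, 405 and 499 against 2.46, 3.40 and 3.55 (6.82 ± 0.21, adjusted p = 3.4e-05). Gap43, Ttc9, Pgf, Ptprn, Fst, Nts, Csf3, Gm525 and Nkain1 were those listed at 0, with the growth-associated protein gene Gap43 at 288, 1924 and 695, the activin antagonist Fst at 211, 107 and 491, and the granulocyte growth factor Csf3 at 86.4, 429 and 725 in culture. Gpnmb, Pdpn, Fn1 and Flnc completed the set.

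On the lower side, most of the 15 were known hepatocyte genes: Fabp1, Serpina1c, Serpina1e, Gnmt, Hpd, Akr1c6, Inmt, Mup19, Uox and Rgn. Their level in LSECs followed the hepatocyte list in that LSEC 3 was above the other 2, for Fabp1 at 1298, 1173 and 4061. Il1b, a cytokine that macrophages make, was at 1008, 894 and 1024 in LSECs and at 1.46, 0 and 0 in Akt-liver ECs (-9.50 ± 0.38, adjusted p = 4.9e-05), and Ccl24, a chemokine of macrophages, at 222, 214 and 159 and listed at 0 in culture. C6, a complement component, was at 339, 250 and 171 and listed at 0 in culture. Clec4g and Dnase1l3 were the 2 sinusoidal genes of the set.

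Cultured liver ECs were also set beside the lung ECs cultured and transduced alike, Akt-LECs 1 to 3. The Akt-liver EC libraries are the same as above, so the 2 comparisons share them. Over 13869 genes tested with limma, 1 was called in either direction (0.00721%), and of 38 sinusoidal genes tested 0 were called. With an unadjusted p under 0.05 and a change past 1 on the log2 scale, 2 of the 38 were higher in Akt-liver ECs and 0 lower, beside 214 (1.54%) and 102 (0.735%) of all genes tested. By limma, which is fitted across all genes, the 2 were Stab2, at 173, 54.4 and 58.3 in Akt-liver ECs and 17.9, 21.9 and 2.97 in Akt-LECs (2.79 ± 0.80), and Igfbp7, at 2555, 1566 and 3826 against 1002, 484 and 69.3 (2.94 ± 0.98), both with an adjusted p of 1.0. Stab1 was at 806, 1092 and 928 and Lyve1 at 1772, 3350 and 1192 in Akt-LECs, against which the liver cultures stood higher in 2 of 3 libraries for both genes. A difference between the cultures could thus not be shown for any sinusoidal gene at this number of libraries.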

How the data were processed

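Libraries were sequenced by the authors as paired 51 bp TruSeq reads on the HiSeq2000. Reads were aligned with TopHat to mm9, and FPKM values were computed with Cufflinks, which normalized to the upper quartile and corrected for sequence bias. The authors deposited the FPKM of each RefSeq transcript. Tool versions are not given in the sources used here, nor is the number of reads, so depth and its precision are unknown. No value column lacked a sample (0).

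Of the 27583 transcripts, 26934 had a current mouse symbol and 649 kept their identifier, which gave 22282 genes after summing. Groups came from the labels. Genes whose mean FPKM over the 6 libraries reached 1 were compared on log2(FPKM + 1) with limma 3.58.1 (R 4.3.3, trend = TRUE, two-sided, Benjamini-Hochberg adjustment), which was tested on simulated data. Tables, motif searches and plots used Python 3.11.15, numpy 2.4.6, pandas 2.3.3 and matplotlib 3.10.9.

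Named genes were members of fixed lists and, per direction, the 15 called genes with the widest gap between groups outside the lists of other cells. The libraries and lists were chosen with earlier results of these data known. Hmgcs1, G6pc1, Hbb-b1, Ahsp, Cd68, Trbc1, Ighm and Ly6g were not used here. Of 5 sex-linked genes, 0 were called. Alternatives were a pseudocount of 0.1 or 10, no filter or one at a mean FPKM of 10, and one fit to all 24 libraries. Others were the highest transcript of each gene, leaving out each library, the replicate number as a block, and median scaling. Endothelial centring (on the median of the junction list) and the criterion of the study methods were also tried. That criterion was a log2 ratio of mean FPKM past 1 or -1, here with 1 added to each mean, and an unadjusted p. The p came from a two-sided test with unequal variances. Leaving out Akt-liver EC 1 and LSEC 3 together was added after seeing the data. RNA extraction is given as Trizol in the labels and as a column kit in the methods.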

Additional observations from a re-analysis of the deposited data

How the results depend on the processing

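After endothelial centring, 3853 genes were higher in Akt-liver ECs and 1257 lower. By the criterion of the study methods, 1014 were higher and 1796 lower, a tilt the other way. Under the other alternatives, both counts stayed within 1.5 times the values of 2295 and 2296; leaving out each library gave 1618 to 2435 higher and 1592 to 2740 lower. Of 157 genes examined one by one, 150 were called and 95 were called under every alternative. Stab1 had a log2 change of -0.10 without Akt-liver EC 2 and of -0.17 without Akt-liver EC 3, and Pecam1 one of 0.43 after endothelial centring, none of them called. The cause of these changes was not tested.

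Replicate numbers did not pair the libraries. Deviations from the group means over 11291 genes correlated at -0.06, 0.18 and 0.06 for libraries with the same number and at -0.22 to 0.13 for others. With the number as a replicate block, 2141 genes were higher and 2141 lower. As no read numbers were used, the smallest level that each library could show is unknown, and genes near an FPKM of 1 are the least certain.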
